A study of Mus musculus with 2 samples.

Results

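The genes described here are the classical and atypical cadherins and the non-clustered protocadherins of the mouse, taken as every protein-coding RefSeq gene named Cdh or Pcdh followed by a number alone. The rule gave 34 of 21774 protein-coding genes, 23 cadherins and 11 protocadherins. Their chromatin was read from single-nucleus ATAC-seq of striatum, in which a transposase tags open DNA and each nucleus carries a barcode. The 2 libraries form 1 group, wild-type embryos of C57BL/6J and CD1 background at stage E14.5, and share a deposited list of 87174 peaks without counts, scores or library names. There is therefore no replicate error, depth is unknown, and every value below describes a single peak set. A site open in few nuclei may not have been called, so a cell type that was rare and a gene with little open chromatin cannot be told apart.

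Cadherins are calcium-dependent adhesion proteins that join cells through their extracellular repeats and, in the classical types, grip the actin cytoskeleton through catenins. Type I members such as N-cadherin hold strong junctions, whereas the many type II members are expressed in different combinations by different brain nuclei and neuron classes. Non-clustered protocadherins adhere more weakly and act in cell sorting, axon growth and synapse formation. In the embryonic striatum both families are known for the sorting of neurons and the guidance of their axons.

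A locus is the gene span with 50 kb on each side, as in the rule, and its peaks were counted. Each count was divided by the mean over the 200 other protein-coding genes closest in length. A locus at 2 or more times that mean is called rich and one at 0.5 times or less poor. The intervals given are exact 95% Poisson intervals and cover counting of peaks only. Positions are in mm10 as deposited.

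The 34 loci together held 471 peaks, 464 of them distinct, against 462.8 expected from genes of like length, a ratio of 1.02 (interval 0.928 to 1.11). The agreement of the totals hid a wide spread. Single loci ran from 0 peaks at Cdh19 to 63 at Cdh4, and Cdh4, Cdh13 and Cdh22 alone held 169 peaks (35.9%). The median ratio was 0.798, against 0.854 over all protein-coding genes. Rich loci numbered 3 of 34 (8.82%, exact binomial interval 1.86 to 23.7%), where 10.7% of all protein-coding genes were rich. Poor loci numbered 12 (35.3%, interval 19.7 to 53.5%), where 30.7% of all were poor. Neither share is a result about the family. With genes matched on neighbours as well as length, the counts became 6 rich and 8 poor of 34, where 10.1% of all genes were rich and 30.1% poor, so that both shares lay on the other side of the background.

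Open gene ends and wide peaks were more frequent among members than among all genes, by counts that no test over samples could weigh. A gene-end peak, one within 1000 bp of either end of the span, was present at 29 of 34 members (85.3%, interval 68.9 to 95%) and at 67.3% of all protein-coding genes. RefSeq promoter windows were listed for 22 members, and 21 of these (95.5%, interval 77.2 to 99.9%) had a peak within 1000 bp of a listed start, against 66.6% of 17492 genes with a listed start. Cdh13, Cdh17 and Cdh19, which had no gene-end peak, have no listed start and are left out of that share. Peaks of the broadest 5%, those over 2544 bp, lay within 1000 bp of the span at 14 members (41.2%, interval 24.6 to 59.3%) and at 17.3% of all. For the broadest 1%, over 4479 bp, the counts were 7 members (20.6%, interval 8.7 to 37.9%) and 3.95% of all. Of those 7, 6 were non-clustered protocadherins. These shares were not matched on length.

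The promoters with the widest peaks over a listed start, and those of the members whose listed promoter lay under no peak, show the range of sequence. Each window runs from 250 bases before to 50 after the start, from the RefSeq table of GRCm38.p6, and capitals mark CG dinucleotides. The first 4 lay inside peaks of 6186 to 7436 bp, at chr14:79771263-79771562 (minus strand) for Pcdh8, chr3:45378148-45378447 (plus) for Pcdh10, chr5:57717831-57718130 (plus) for Pcdh7 and chr14:84443313-84443612 (plus) for Pcdh17. The other two had no peak over the window, at chr2:178430265-178430564 (plus) for Cdh26 and chr10:60696441-60696740 (minus) for Cdh23.
Pcdh8: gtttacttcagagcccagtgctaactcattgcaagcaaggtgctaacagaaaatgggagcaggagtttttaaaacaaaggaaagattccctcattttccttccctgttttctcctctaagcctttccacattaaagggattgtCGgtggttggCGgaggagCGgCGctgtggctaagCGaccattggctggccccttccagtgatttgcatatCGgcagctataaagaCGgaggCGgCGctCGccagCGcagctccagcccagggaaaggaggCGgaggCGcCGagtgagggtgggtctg
Pcdh10: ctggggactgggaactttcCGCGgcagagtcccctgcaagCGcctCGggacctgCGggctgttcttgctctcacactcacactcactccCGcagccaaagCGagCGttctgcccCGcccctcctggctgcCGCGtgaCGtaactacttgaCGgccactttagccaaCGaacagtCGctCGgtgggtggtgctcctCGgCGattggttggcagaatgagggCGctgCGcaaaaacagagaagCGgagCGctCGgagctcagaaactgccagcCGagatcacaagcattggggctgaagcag
Pcdh7: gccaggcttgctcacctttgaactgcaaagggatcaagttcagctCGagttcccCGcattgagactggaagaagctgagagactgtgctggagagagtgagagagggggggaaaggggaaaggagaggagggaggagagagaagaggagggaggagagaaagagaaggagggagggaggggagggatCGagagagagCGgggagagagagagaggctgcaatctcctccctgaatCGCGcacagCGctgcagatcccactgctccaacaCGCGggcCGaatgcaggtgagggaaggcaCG
Pcdh17: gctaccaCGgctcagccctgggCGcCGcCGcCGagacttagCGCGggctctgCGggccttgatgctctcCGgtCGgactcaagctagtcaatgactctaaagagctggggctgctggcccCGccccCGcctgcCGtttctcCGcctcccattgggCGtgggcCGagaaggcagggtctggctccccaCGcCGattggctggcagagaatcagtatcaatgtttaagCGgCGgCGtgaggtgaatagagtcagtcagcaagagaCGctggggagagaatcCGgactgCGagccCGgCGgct
Cdh26: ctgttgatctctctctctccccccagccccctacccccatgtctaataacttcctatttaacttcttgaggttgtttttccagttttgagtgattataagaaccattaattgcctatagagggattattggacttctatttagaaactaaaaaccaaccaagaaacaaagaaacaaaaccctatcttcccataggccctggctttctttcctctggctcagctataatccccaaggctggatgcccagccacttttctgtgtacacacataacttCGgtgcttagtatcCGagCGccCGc
Cdh23: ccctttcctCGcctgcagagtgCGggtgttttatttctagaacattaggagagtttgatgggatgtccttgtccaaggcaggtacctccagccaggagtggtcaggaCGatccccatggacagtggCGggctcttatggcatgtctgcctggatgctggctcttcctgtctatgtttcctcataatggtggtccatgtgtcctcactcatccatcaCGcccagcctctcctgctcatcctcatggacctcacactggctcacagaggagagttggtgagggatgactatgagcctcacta

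Promoter windows under wide peaks held 14 CG dinucleotides at Pcdh8, 24 at Pcdh10, 11 at Pcdh7 and 26 at Pcdh17. Cdh26 held 4 and Cdh23 held 5. Over protein-coding promoters the median was 21 under a peak and 3 with none. The 25 listed windows of 22 members had a median of 14, from 2 at Cdh10, whose start nevertheless lay under a peak, to 38 at Cdh22. Pcdh20, with 4, also had a peak over its start. Of short motifs searched on both strands, TAATTA, a homeodomain core, was in 1 of the 25 windows, at Cdh7 (4.53% of protein-coding promoters held it). TGACAG, a core bound by MEIS-type factors, was in 4 (16% against 18.7%), at Cdh6, Cdh7, Cdh20 and Cdh15, where it occurred 3 times. CAGCTG, an E-box, was in 3 (12% against 15.6%), at Cdh9, Cdh12 and Pcdh15. The letters of TGACAG and CAGCTG can overlap at CAG. The counts are descriptions of these windows.

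**Figure D1:**
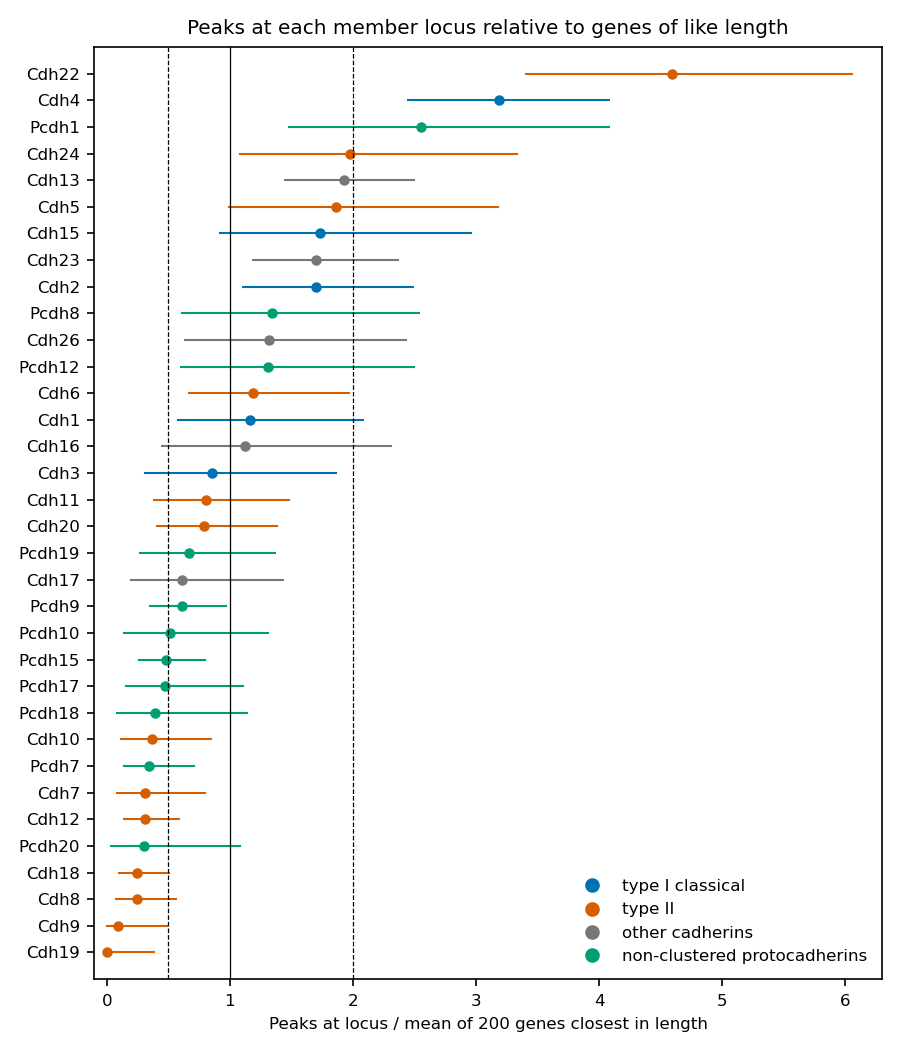
Peaks at each member locus divided by the mean of the 200 genes closest in length (x axis, no unit), 1 row per member, coloured by type. Bars are exact 95% Poisson intervals of the count, and vertical lines stand at 0.5, 1 and 2. Cdh22, Cdh4 and Pcdh1 lie at 2 or more, and 12 members, 7 of them type II cadherins and 5 protocadherins, lie at 0.5 or less.

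Type I classical cadherins held 119 peaks over 5 loci against 59.02 expected, a ratio of 2.02 (interval 1.67 to 2.41). By bases covered in place of peaks the ratio was 1.67. Of the 5 loci 1 was rich and none poor, beside 10.7% rich and 30.7% poor over all genes. The rich locus was Cdh4, which encodes R-cadherin of retina and brain. It accounted for 63 of the 119 peaks, where 19.8 were expected. Its span on chromosome 2, from 179442423 to 179899377, carried 58 peaks and the flanks only 5. Its ratio was 3.19 (interval 2.45 to 4.08), and 196 of the 200 genes closest in length had fewer peaks. A peak of 4311 bp from 179440126 lay over one end, and inside the gene lay wide peaks of 2800 bp from 179582743 and 2635 bp from 179662062. No stretch of the locus longer than 38760 bp was free of peaks. Among the 557 protein-coding genes of at least 300 kb it ranked 11 by peaks per 100 kb, with 11.3 against a median of 3.05.

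Cdh2, which encodes N-cadherin, the main classical cadherin of neural progenitors, had 26 peaks on chromosome 18 (span 16588877 to 16809246), 23 of them in the span. Its ratio was 1.70 (interval 1.11 to 2.49). A peak of 3636 bp from 16806500 covered one end. No other protein-coding gene lay within 500 kb, so none of these peaks lay in a neighbour's span. It had the highest ratio of the 13 members so isolated.

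The remaining type I genes are best known outside the brain. Cdh1 (chromosome 8, 106603350 to 106670247), encoding the epithelial E-cadherin, had 11 peaks and a ratio of 1.16. Cdh3 (106510852 to 106556911), encoding the placental P-cadherin, had 6 and a ratio of 0.854. They are neighbours, and 3 peaks counted for both. Both had a peak over 1 end, of 1251 bp at Cdh1 and 1852 bp at Cdh3. Cdh15 (chromosome 8, 122848374 to 122867397), encoding the muscle M-cadherin, had 13 peaks and a ratio of 1.73 (interval 0.922 to 2.96), but only 3 overlapped its span and 6 lay in neighbouring genes. The peak over its start was 571 bp wide.

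Type II cadherins split apart. The 13 loci held 145 peaks against 190.9 expected (ratio 0.759, interval 0.641 to 0.894), with a median ratio of 0.364, 1 rich locus and 7 poor ones, and 50 of the peaks belonged to Cdh22. Over all genes 10.7% were rich and 30.7% poor, and over those with no protein-coding gene within 50 kb 56.8% were poor. That gene, which encodes a cadherin first described in pituitary and brain, had the highest ratio of the family, 4.59 (interval 3.41 to 6.06). All 200 genes closest in length, of 117887 to 129237 bp, had fewer peaks. Its span on chromosome 2 (165111501 to 165234924) carried 28 peaks, with 10 in one flank and 12 in the other, and only 3 lay solely in the neighbours Cd40 and Slc35c2. Peaks covered 25.3% of the locus, the highest share among members. Wide peaks in the span measured 4732 bp from 165132946, 3905 bp from 165180920, 2785 bp from 165138577 and, over the start, 3393 bp from 165232606.

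Cdh24 (chromosome 14, 54631231 to 54642067), a short type II gene, had 14 peaks and a ratio of 1.98, just short of rich. Here 9 peaks lay only in other genes of a crowded region, and a peak of 3502 bp covered its start. Cdh6 (chromosome 15, 13028699 to 13176407), known as K-cadherin of kidney and developing forebrain, had 15 peaks (ratio 1.19), 14 of them in the span. Its start lay in a peak of 3397 bp from 13171568. Cdh11 (chromosome 8, 102632095 to 102785493), OB-cadherin of mesenchyme and brain, had 10 peaks (0.803) and a peak of 4383 bp from 102783091 over one end. Cdh20 (chromosome 1, 104768340 to 104995481) had 12 (0.792), with a peak at each end, that over the start 2356 bp wide.

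Apart from Cdh19, the poor type II loci had a peak over a listed start and few others. Cdh8 (chromosome 8, 99024471 to 99417666), a cadherin of subsets of forebrain neurons, had 5 peaks where 20.6 were expected, a ratio of 0.243 (interval 0.0788 to 0.566). One of them was a 3491 bp peak from 99414083 over the start, and the 230543 bp from 98974471 to 99205014 held none. Cdh9 (chromosome 15, 16728550 to 16857138), a synaptic cadherin of hippocampus, had 1 peak, 729 bp wide and over its start, where 11.3 were expected. Only 3 of the 200 genes closest in length had fewer. Cdh7 (chromosome 1, 109982237 to 110145272) had 4 peaks (0.313), all between 10.4 kb before its start and 2.8 kb after it, and no peak in the 209415 bp that followed. Cdh10 (chromosome 15, 18818869 to 19016206) had 5 (0.364), with 1566 bp over the start.

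Cdh12 and Cdh18, long neuronal genes on chromosome 15, had peaks over starts that lie deep inside their spans. Cdh12 (20448878 to 21598421) had 9 peaks against 29.3 expected (0.307, interval 0.14 to 0.583). Its widest, of 2504 bp from 21109166, covered the listed start 662.6 kb inside the span, and 469574 bp before it were empty. Cdh18 (22548898 to 23477491) had 7 peaks against 28.6 (0.245, interval 0.0986 to 0.505) and none at either end of the span. A 1709 bp peak from 23035378 covered its listed start 487.6 kb inside, and the next peak lay 221 kb away. By peaks per 100 kb, they ranked 514 and 517 of the 557 long genes. For genes this long the comparison set is broad, from 535835 to 2390387 bp at Cdh12.

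At the remaining type II genes the pattern differed again. Cdh19 (chromosome 1, 110888002 to 110977601), a cadherin of Schwann cells and their precursors, had no peak in its locus of 189599 bp, where 9.54 were expected. Of all protein-coding genes 14.1% had none, and no other member did. Cdh5 (chromosome 8, 104101613 to 104144504), VE-cadherin of endothelium, had 13 peaks (1.86), but 12 of them lay in the flanks, and the only one on the gene was a 242 bp peak from 104101400 at one end. Counted over the span alone its ratio was 0.459, and with each peak given to the nearest span it was 3.01, so its place depends on how flank peaks are assigned.

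**Figure D2:**
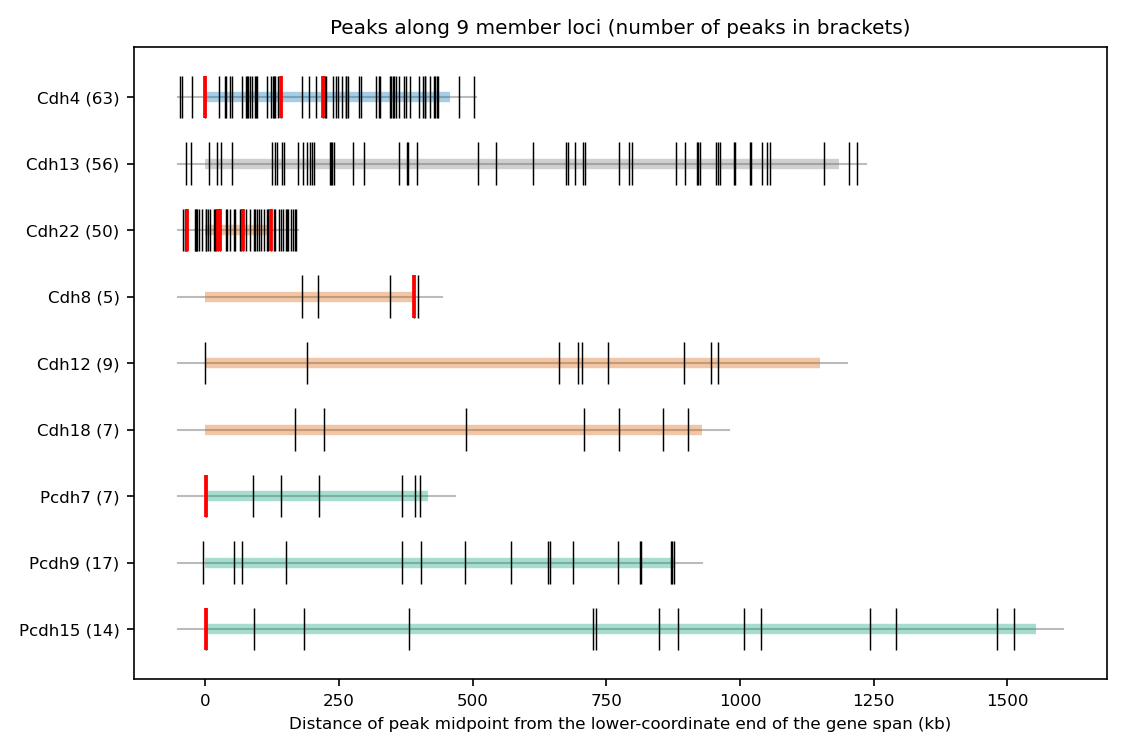
Peaks along 9 member loci, each row 1 locus with its peak count in brackets, and the x axis the distance of the peak midpoint from the lower-coordinate end of the gene in kb. Shaded bars are gene spans, thin lines the 50 kb flanks, black ticks peaks and red ticks peaks of the broadest 5%. Cdh4 and Cdh22 are filled along their length and Cdh13 has many peaks with a longest empty stretch of 113711 bp, whereas Cdh8, Cdh12, Cdh18, Pcdh7 and Pcdh15 have long empty stretches.

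The other cadherins differ in structure or tissue from the classical types, and held 113 peaks over 5 loci against 71.65 expected (ratio 1.58, interval 1.3 to 1.9). Most of these peaks were at Cdh13, with 56, and Cdh23, with 35. By bases covered in place of peaks the ratio of the group was 1.23. None of the 5 loci was rich or poor, beside 10.7% rich and 30.7% poor over all genes. Cdh13 encodes T-cadherin, which is held in the membrane by a lipid anchor and has no cytoplasmic tail. Its 56 peaks on chromosome 8 (118140017 to 119324929) gave a ratio of 1.93 (interval 1.45 to 2.5), and 52 lay inside the gene, yet none came within 1000 bp of either end. The widest, 1905 bp from 118283381, lay 144.3 kb into the span. Under 7 of 15 alternatives its ratio reached 2, but it was 1.25 over peaks wider than the median and 1.38 by bases covered. Cdh23 and Pcdh15 encode the 2 strands of the tip link, the filament that gates hair cell channels in the inner ear. Cdh23 (chromosome 10, 60302748 to 60696513) had 35 peaks (1.70, interval 1.19 to 2.37), 6 of them only in neighbouring genes, and the widest on the gene was 2138 bp. A peak of 533 bp from 60696891 lay next to its listed promoter and not over it.

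Cdh16, Cdh17 and Cdh26 are epithelial genes. Cdh16 (chromosome 8, 104601915 to 104624396), a kidney cadherin, had 7 peaks (1.12), of which 1 overlapped the gene. Cdh17 (chromosome 4, 11758157 to 11817905), the liver-intestine cadherin, had 5 (0.613) and none at either end. Cdh26 (chromosome 2, 178430515 to 178487366) had 10 (1.32), only 1 of them on the gene, and it was the 1 member with a listed start and no peak within 1000 bp of it. Together with Cdh13, Cdh18 and Cdh19, Cdh17 and Cdh26 made up the 5 members without a gene-end peak.

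**Figure D3:**
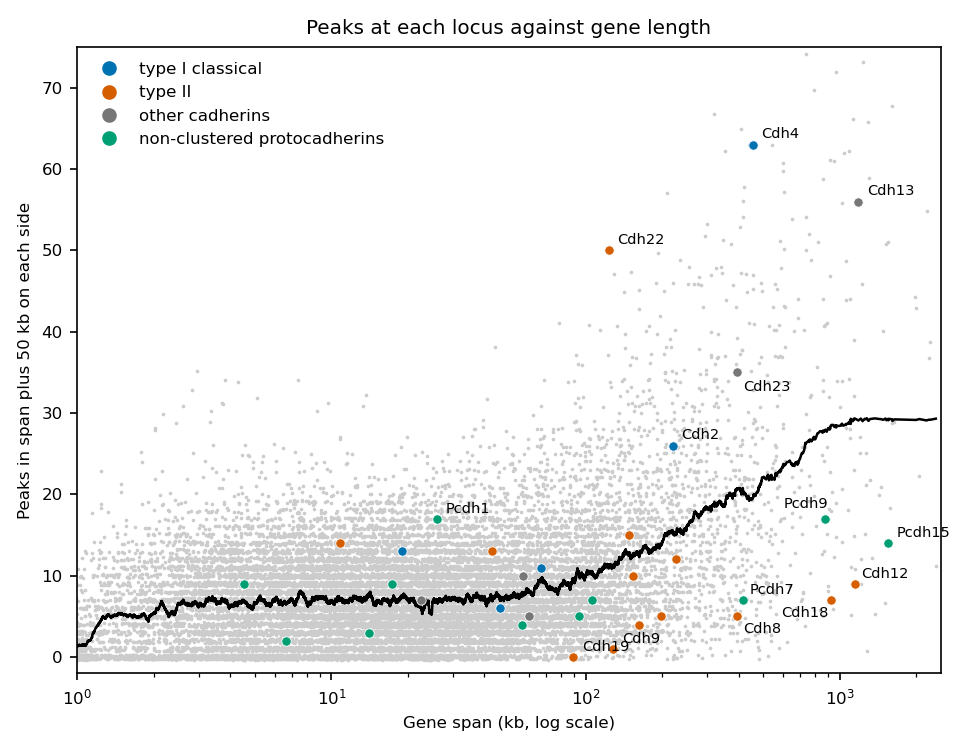
Peaks per locus (y axis) against gene span in kb (x axis, log scale) for protein-coding genes (grey, spread slightly in y, values beyond the axes not drawn) and members (coloured by type). The black line is the mean of the 200 genes closest in length. Cdh22 and Cdh4 stand far above the line, and Cdh8, Cdh12, Cdh18 and Pcdh7 far below it.

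As a group the non-clustered protocadherins had fewer peaks than genes of like length, and at 6 of the 11 a very wide peak lay over an end of the gene. The 11 loci held 94 peaks against 141.2 expected (ratio 0.666, interval 0.538 to 0.815), with a median ratio of 0.51, 1 rich and 5 poor, beside 10.7% rich and 30.7% poor over all genes. A peak of the broadest 5% lay at 7 of the 11 (17.3% of all genes) and one of the broadest 1% at 6 (3.95% of all). By bases covered in place of peaks the ratio was 0.873.

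The widest was at Pcdh8, which encodes arcadlin, an activity-induced synaptic protein. Its gene on chromosome 14 (79766772 to 79771312) lay under a 7436 bp peak from 79767462, which covered the start and all but the far end of the gene. Only 0.859% of protein-coding genes had a wider peak near them. The locus held 9 peaks (1.34) and was neither rich nor poor in 13 of 15 alternatives. The ratio was 2.79 with genes matched on neighbours and 5.79 with nearest-span assignment. It was 1.16 over the span alone and 0.715 over peaks wider than the median. At Pcdh10, which encodes OL-protocadherin, needed for the growth of striatal axons in mice, a 6940 bp peak from 45375504 covered the start (chromosome 3, 45378398 to 45434579). The locus held 3 further peaks, 4 in all against 7.84 expected (ratio 0.51, interval 0.139 to 1.31), which is just short of poor. Over the span alone the ratio was 1.46 and with a flank of 100 kb 0.312. Pcdh17 (chromosome 14, 84443563 to 84537565), a presynaptic protein of corticobasal ganglia circuits, had a 6186 bp peak from 84442464 at its start. It was the only peak on the gene, with 4 others in the flanks (ratio 0.476).

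Pcdh7 (chromosome 5, 57716145 to 58133236) had a 6883 bp peak from 57713934 over its start and 6 further peaks (ratio 0.343, interval 0.138 to 0.708). The next peak lay 87.7 kb from the start and was 1 bp wide, as was 1 other. Without peaks under 20 bp its ratio was 0.25. Pcdh19 (X chromosome, 133582860 to 133689044), known for an X-linked epilepsy, had a 5162 bp peak from 133685847 over its start and 7 peaks in all (0.666). All of them lay between 35.7 kb inside the gene and 3.1 kb before its start, and 120142 bp at the far end held none. Pcdh1 (chromosome 18, 38185914 to 38212048), a protocadherin of epithelia and brain, was the 1 rich protocadherin, with 17 peaks (2.55, interval 1.48 to 4.08). A 6954 bp peak from 38208314 covered one end, and peaks covered 24.8% of its locus, close to the share at Cdh22. Its neighbour Pcdh12 (38267092 to 38284401), an endothelial protocadherin, shared 4 of its peaks and had 9 (1.31). The widest peak on Pcdh12 was 419 bp, the narrowest such value in the group.

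The other protocadherins had narrower peaks at their starts. Pcdh9 (chromosome 14, 93013700 to 93892834), a neuronal gene of great length, had 17 peaks (0.608, interval 0.354 to 0.973), with 2519 bp over its start, just under the width of the broadest 5%. Pcdh15 (chromosome 10, 73096277 to 74649831) had 14 (0.478, interval 0.261 to 0.802). Its widest peak, 3992 bp from 73096440, lay at the low end of the span, and an 840 bp peak covered the listed start 725.6 kb inside. Pcdh18 (chromosome 3, 49743291 to 49757383) had 3 (0.389) with 2150 bp at the start. It was poor in 10 of 15 alternatives, and its ratio was 1.37 over the span alone and 1.41 with nearest-span assignment. Pcdh20 (chromosome 14, 88464743 to 88471396) had 2 (0.299, interval 0.0362 to 1.08), 1 at each end, with 2289 bp at the start. Counted over the span alone Pcdh20 reached 2.05, since both of its peaks lie on a gene of 6654 bp.

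**Figure D4:**
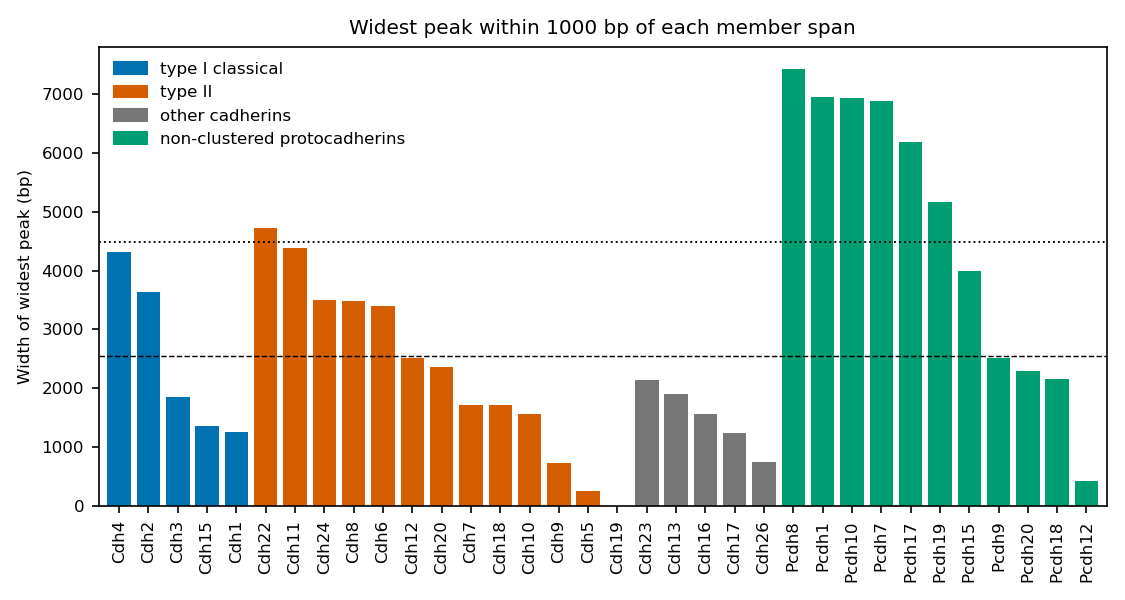
Width in bp of the widest peak within 1000 bp of each member span (bars, from 0), grouped and coloured by type. The dashed line marks the broadest 5% of all peaks (2544 bp) and the dotted line the broadest 1% (4479 bp). The 6 protocadherins with a peak of the broadest 1% stand above the dotted line, against Cdh22 alone among cadherins, and Cdh19 has no peak.

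Poor loci lay where genes are sparse. No other protein-coding gene came within 50 kb of the span at 18 of 34 members (52.9%, interval 35.1 to 70.2%), against 11.3% of all protein-coding genes. Within 500 kb there was none at 13 members (38.2%, interval 22.2 to 56.4%), against 0.739% of all. Among the 18 isolated members 10 were poor (55.6%), and among all isolated genes 56.8% were. Of the 16 members with a neighbour 2 were poor (12.5%), the long genes Cdh12 and Cdh18, and 27.4% of all such genes were. Each of these 2 had only 1 other protein-coding gene within 500 kb, Acot10 at Cdh12 and Hnrnpa1l2-ps2 at Cdh18. All 3 rich members had neighbours, as did 2241 of the 2340 rich loci over all protein-coding genes. Over all genes 11.6% of those with a neighbour were rich and 4.01% of isolated ones. The median ratio was 0.477 at isolated members and 0.398 at all isolated genes. A peak in a neighbour's promoter counts for the locus too. At the rich members, peaks lying only in a neighbouring gene were 3 of 63 at Cdh4, 3 of 50 at Cdh22 and 1 of 17 at Pcdh1. What part such peaks had in the calls was not tested. Genes were then matched on length and on broad classes of neighbour number within 50 kb. The ratio of the whole family became 1.18 and that of protocadherins 0.887. Under that matching the protocadherins went from 5 poor loci to 1, with 2 rich. Type II cadherins had 7 poor loci as before, with a ratio of 0.861. Having no protein-coding gene within 500 kb was not matched. Of members so placed 9 of 13 were poor (69.2%), beside 62.1% of all such genes.

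**Figure D5:**
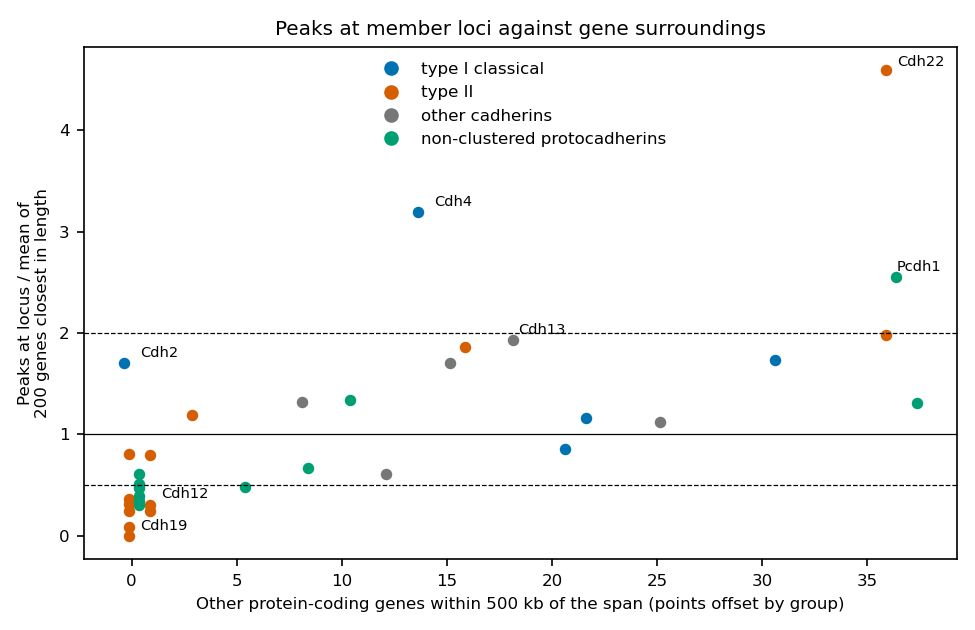
Ratio of peaks to genes of like length (y axis) against the number of other protein-coding genes within 500 kb (x axis, points offset sideways by type) for the 34 members. Lines stand at 0.5, 1 and 2. Of the 13 members at 0 neighbours, Cdh2 alone lies above 1.

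Several members lie together in such regions. From Cdh6 to Cdh18 on chromosome 15, 10.4 Mb with 5 members and 7 protein-coding genes in all, there were 6.6 peaks per Mb, against 35.9 over the chromosome. From Pcdh8 to Pcdh9 on chromosome 14, 14.1 Mb with 4 members and 7 protein-coding genes, there were 10.4 per Mb against 29.3. From Pcdh10 to Pcdh18 on chromosome 3 the density was 9.36 against 29.2, and from Cdh8 to Cdh11 on chromosome 8 it was 9.31 against 37. From Cdh20 to Cdh19 on chromosome 1, where 24 protein-coding genes lie, it was 16.4 against 30.7. These blocks were chosen after the members' positions were known and run from the first to the last member named.

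Peaks at members were wider at gene ends than elsewhere. Over the 464 distinct peaks the median width was 520.5 bp, against 565 bp for all peaks. The 33 peaks at member gene ends had a median of 2289 bp and the other 431 one of 500 bp. Peaks of all genes were not split in this way, so whether the contrast is particular to members was not tested. Peaks under 20 bp numbered 13 (2.8%, against 1.61% of all peaks), and all of them lay in gene spans, at Cdh2, Cdh4, Cdh13 and Pcdh7 among others. Counted per locus, 327 peaks lay on the gene spans and 144 in flanks, and 9 members had none in the flanks.

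Genes that work with cadherins were counted by the same calls, which over all genes gave 10.7% rich and 30.7% poor. Of 14 partner genes 1 was rich, Jup (plakoglobin, 17 peaks against 7.12). The 2 poor ones were Afdn (afadin, 6 against 12.9) and the sheddase gene Adam10 (5 against 10.5). The median ratio was 1.16, with 0.854 over all genes. Ctnnb1, encoding beta-catenin, had 11 peaks (1.59), and Ctnnd2, encoding the neuronal delta-catenin, 44 (1.59). Of 28 other cadherin superfamily genes 3 were rich and 11 poor. The rich ones were Dchs1 (15 against 6.79), a partner of the Fat cadherins, the calsyntenin gene Clstn1 (20 against 8.58) and Cdhr3 (18 against 8.05). Poor loci included 8 of the 9 desmosomal cadherin genes, Dsc1, Dsc2, Dsc3, Dsg1a, Dsg1b, Dsg1c, Dsg3 and Dsg4, which adjoin on chromosome 18 and share 12 peaks between them with Dsg2. The others were Fat2 (4 against 8.37), Cdhr1 (3 against 7.16) and Pcdh11x (2 against 24). Of 12 hair cell tip link partners, Whrn (22 against 8.96) and Ush1g (15 against 7.16) were rich and Tmc1 (6 against 16.3) poor.

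Marker genes were checked as a measure of which tissues the peak set covers. All 15 striatal and ganglionic eminence markers had a gene-end peak, and 14 had one of the broadest 5%, beside 67.3% and 17.3% of all protein-coding genes. Gene-end peaks were also present at 6 of 6 cortical, 5 of 6 endothelial, 4 of 5 epithelial, 4 of 4 hair cell, 4 of 6 meningeal and mesenchymal, 3 of 4 muscle, 2 of 5 microglial and 1 of 4 liver and gut markers. Cdh5 and Cdh1 are themselves among the endothelial and epithelial markers counted. Peaks of the broadest 5% lay at 4 of 6 cortical, 2 of 4 hair cell, 1 of 4 muscle and 1 of 6 meningeal and mesenchymal markers, and at no endothelial, epithelial, microglial or liver and gut marker. A gene-end peak alone did not separate striatal from other markers here. Whether cells of those other types contributed the peaks at Cdh1, Cdh3, Cdh5, Cdh15, Cdh16 and Pcdh12 was not tested.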

How the data were processed

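Nuclei of 2 libraries from wild-type embryonic striatum, 1 group, were profiled by droplet ATAC-seq with 10x Genomics reagents, per the labels. The submitters' processing notes name mm10, Cell Ranger ATAC 1.2.0 and Signac without role or order. The deposited file is 1 list of 87174 peak positions for the whole series. It gives neither value nor library, so no test over samples was possible. The peak caller and the handling of doublets are not given in the sources used here. The smallest gap between adjacent peaks was 501 bp, and positions may be off by 1 bp, since no header states their base.

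Gene spans came from a RefSeq table of GRCm38.p6. Entries on scaffolds were left out, which kept 21774 of 21900 protein-coding genes. Listed starts, strand and promoters came from a RefSeq promoter table with entries for 22 members. Overlap meant at least 1 bp. Like-length genes were the 200 closest in log length, because wide length classes lump all very long genes. Ratios were tested on simulated data. Python 3.11.15 with numpy 2.4.6, pandas 2.3.3 and scipy 1.17.1 was used.

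The members and all lists were chosen with earlier results of these data known. Full values were planned for the 8 highest and 8 lowest members, those with a broad peak and those without a gene-end peak. Other members are named, with the rich or poor genes of the pathway lists. Alternatives changed the comparison genes, flank, peaks counted, overlap, assignment and measure.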

Additional observations from a re-analysis of the deposited data

How the results depend on the processing

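The count of 3 rich members became 5 with 10 length classes, 5 with 50 length classes, 6 with genes matched on neighbours, 7 with no flank, 5 with a flank of 100 kb, 7 with distal peaks only, 7 with each peak given to the nearest protein-coding span and 8 against the median of like-length genes. It was 3 or 4 under the other alternatives. Rich loci over all protein-coding genes moved less, from 9.9% to 15.1%. The 12 poor members ranged from 8 to 14 over all 15 alternatives, while poor loci over all genes ranged from 24.3% to 39.7%. With nearest-span assignment 9 of 34 were poor beside 39.7% of all genes, and with a flank of 10 kb 8 beside 37.7%. The family ratio of 1.02 became 1.19 with 10 length classes, 1.18 with genes matched on neighbours, 1.14 with nearest-span assignment and 1.18 against the median, the others lying inside its interval. Cdh22, Cdh4 and Pcdh1 were rich and Cdh7, Cdh8, Cdh9, Cdh18 and Cdh19 poor under every one of the 15 alternatives. Pcdh15 and Pcdh17 were poor in 7 of 15, and Pcdh20 turned from poor (0.299) to 2.05 over its span alone. Members with a broad peak fell from 14 to 7 for the broadest 1%. Gene-end peaks were found at 25 to 29 members with other windows or widths, and at 21 of the 22 with a listed start when that start alone was used. Leaving out a library was not possible because the list does not name libraries. No paired analysis was possible because the list pools both libraries. Depth is unknown, so a locus without a peak may hold open chromatin in few nuclei.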
